A study of Mus musculus with 12 samples.

Results

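The MHC class II presentation genes described here are 10 genes, H2-Aa, H2-Ab1, H2-Eb1, Cd74, H2-DMa, H2-DMb1, H2-DMb2, H2-Oa, H2-Ob and Ciita, chosen by gene name from the 55414 genes of the deposited table. All 10 were listed once and passed the filter on low values, which left 15148 genes for testing. RNA was sequenced from whole lungs of 12 mice on day 4 after lipopolysaccharide (LPS), a bacterial cell wall component that injures the lung when it is given into the airways. 6 mice were labelled IL-10 B-WT, wild type for the deletion, and 6 were labelled IL-10 B-KO, and every mouse received LPS, so no untreated lung was compared. IL-10 B-KO mice came from a cross of floxed Il10 mice with Mb1-Cre mice on a C57BL/6J background. Mb1 is an older name of Cd79a, the B cell receptor subunit gene whose locus drives the Cre recombinase, so that Il10 is deleted in the B lineage. The mice were matched for age and sex, and their ages and the Cre status of the IL-10 B-WT mice were not given in the sources used here. The comparison asks how the lung transcriptome differed when B cells could not make the anti-inflammatory cytokine IL-10.

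MHC class II molecules carry peptides from taken-up protein to the cell surface, where CD4+ T cells read them. An alpha and a beta chain assemble in the endoplasmic reticulum around the invariant chain (Cd74), which guides them to endosomes and is then cut down to a fragment that blocks the groove. H2-DM, made of H2-DMa with a DM beta chain, exchanges that fragment for peptides, and H2-DO, made of H2-Oa and H2-Ob, binds H2-DM and restrains it. Ciita is the transactivator that switches on the class II promoters together with the proteins of the X and Y boxes. In the lung, class II is made by B cells, dendritic cells and macrophages, and also by alveolar type 2 epithelium. H2-DO is known for a bias to B cells, and H2-Oa, H2-Ob and H2-DMb2, named B-cell-biased genes, were set against the other 7 genes, called shared genes.

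In the assembly GRCm38 with GENCODE M21 genes, 8 of the 10 genes lie on chromosome 17 within 224335 bases, at chr17:34092340-34316674. Their order is H2-Oa, H2-DMa, H2-DMb2, H2-DMb1, H2-Ob, H2-Ab1, H2-Aa and H2-Eb1, and the 3 B-cell-biased genes lie among the shared ones rather than in a block. H2-DMb2 (chr17:34143307-34151555) and H2-DMb1 (chr17:34153072-34160230) lie 1516 bases apart on the plus strand, and H2-Ob (chr17:34238903-34254414) ends 3274 bases before H2-Ab1. Ciita lies elsewhere, at chr16:10480059-10528418.

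H2-DMb1 and H2-DMb2 are near copies, which bears on every value given for them. Their coding sequences were both 783 bases long and were identical at 751 of the 783 aligned bases (95.9%), with a longest identical run of 221 bases. For comparison, H2-Ab1 and H2-Eb1 shared 73.7% and H2-DMa and H2-Oa 59.7% of aligned coding bases. The following exonic windows of 60 bases, read from the GENCODE M21 transcripts and numbered from the A of the start codon, are the most alike (positions 95 to 154, no difference) and the least alike (positions 208 to 267, 17 differences), with differing bases in capitals.
H2-DMb1, positions 95 to 154: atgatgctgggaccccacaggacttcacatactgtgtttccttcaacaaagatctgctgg
H2-DMb2, positions 95 to 154: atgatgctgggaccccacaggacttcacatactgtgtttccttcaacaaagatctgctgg
H2-DMb1, positions 208 to 267: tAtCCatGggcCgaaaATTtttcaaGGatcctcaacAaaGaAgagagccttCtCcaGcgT
H2-DMb2, positions 208 to 267: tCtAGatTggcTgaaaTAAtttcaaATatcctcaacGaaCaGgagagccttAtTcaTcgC
A read that lies within the first window cannot be placed on one of the copies, and a read across the second can. The level of each copy therefore depends on how the authors' estimator divided shared reads and is uncertain.

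Promoters of 7 members were found in the RefSeq table, each running from 250 bases before to 50 bases after the start site on GRCm38.p6. Both strands were searched for the core of the Y box, GATTGG, and for a core of the X box, AGNNACNGA. The 7 members had 8 promoters, and the H2-DMa promoter at chr17:34122582-34122881 held neither core. Counts below are by member, with any of its promoters, whereas shares of the table are by promoter. The Y core stood in a promoter of each of the 7 members and in 16.1% of the 32851 promoters of the table. The X core stood in promoters of 4 members, against 17.7% of all promoters. An X core ending 10 to 30 bases before a Y core on the same strand was found for H2-Eb1 and H2-DMb1, an arrangement held by 36 of all promoters (0.11%). The stretches from 150 bases before to 10 bases after the RefSeq start site are shown for the 3 members that led the list in holding both cores on one strand, and capitals mark the cores on either strand.
H2-Eb1, chr17:34305717-34305876, plus strand: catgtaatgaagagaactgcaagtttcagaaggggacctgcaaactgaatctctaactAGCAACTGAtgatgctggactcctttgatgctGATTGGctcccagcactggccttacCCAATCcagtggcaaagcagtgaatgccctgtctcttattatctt
H2-DMb1, chr17:34153041-34153200, plus strand: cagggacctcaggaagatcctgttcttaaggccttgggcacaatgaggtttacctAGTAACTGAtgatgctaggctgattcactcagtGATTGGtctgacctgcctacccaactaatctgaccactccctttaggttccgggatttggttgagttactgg
H2-Oa, chr17:34092229-34092388, plus strand: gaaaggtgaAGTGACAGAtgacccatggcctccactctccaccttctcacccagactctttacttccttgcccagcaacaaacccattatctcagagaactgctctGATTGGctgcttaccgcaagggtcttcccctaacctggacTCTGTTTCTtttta
In H2-Eb1 the X core began 92 bases and the Y core 60 bases before the start, with 23 bases between them. In H2-DMb1 the cores began 95 and 62 bases before the start, with 24 bases between them. H2-Oa, a B-cell-biased gene, held both cores with a longer gap. A match of letters is a description of the sequence and not of binding.

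Expression was given as TPM, the share of all transcripts that a gene holds after scaling by gene length and to a common total, so levels can be set side by side between genes. The 12 libraries summed to 991646 to 994430 TPM, and their read depth is unknown because read counts were not used here. Immunoglobulin genes and Jchain took 0.248% to 15.4% of TPM in the IL-10 B-WT group and at most 0.0647% in any IL-10 B-KO lung. The highest share belonged to IL-10 B-WT replicate 2, which also had the highest summed TPM of 16 B cell markers, 2360.81, against 190.67 to 397.03 in the other IL-10 B-WT lungs. That lung stands apart in B cell transcripts, and the values that include it are also given without it for the B-cell-biased genes, the ratios and the marker lists. Il10 was at most 0.88 TPM in any lung (the IL-10 B-KO lungs reached 0.58), so the deletion could not be checked in whole lung. Cd79a, the Cre driver, was at 15.3 to 258.64 TPM across IL-10 B-WT lungs but at 0 for 3 IL-10 B-KO lungs, with 0.05, 4.35 and 5.73 TPM in the other 3. Loss of Il10 from B cells and a lower level of B cell transcripts cannot be told apart in this design.

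Class II transcripts were abundant in all 12 lungs, with Cd74 and H2-Ab1 the most abundant in both genotypes, whereas the order of Ciita, H2-Oa and H2-Ob differed between them. The 10 genes together made up 0.316% to 0.953% of TPM in the IL-10 B-WT group, beside 0.496% to 1.44% for IL-10 B-KO, and Cd74 alone supplied 41.7% to 55.0% of that. Cd74 was above H2-Ab1 and H2-Ab1 above H2-Aa in 12 of 12 lungs. The neighbours H2-Aa and H2-Eb1 were not separated in order, with H2-Aa the higher in 9 of 12 lungs, and neither were H2-DMa and H2-DMb1, with H2-DMa the higher in 6. H2-DMb2 was below H2-DMb1 in 11 of 12 lungs, the exception being IL-10 B-WT replicate 2. H2-DMb2 was above H2-Oa and above H2-Ob in 12 of 12 lungs, whereas H2-Oa exceeded H2-Ob in 2 lungs of IL-10 B-WT but 5 lungs of IL-10 B-KO. Ciita exceeded H2-Oa in 2 lungs of IL-10 B-WT but all 6 of IL-10 B-KO, and H2-Ob in 2 and 5 lungs. H2-DMb2 exceeded Ciita in 5 lungs of IL-10 B-WT but 3 of IL-10 B-KO.

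**Figure D1:**
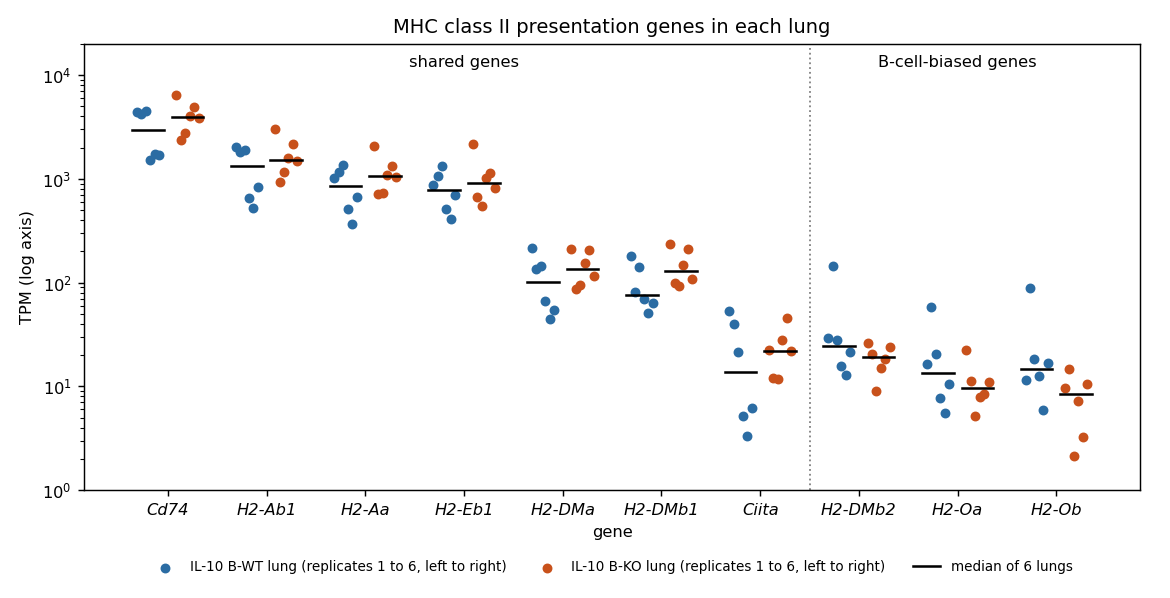
TPM on a log axis of the 10 class II genes in each lung, IL-10 B-WT in blue and IL-10 B-KO in orange with replicates 1 to 6 from left to right, and black lines at the medians of 6 lungs. The groups overlap for every gene, and IL-10 B-WT replicate 2 is the highest of the 12 lungs for H2-DMb2, H2-Oa and H2-Ob.

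No member passed the test between genotypes, which required an adjusted p of at most 0.05 and a log2 fold change of 1 or more in either direction (limma on log2(TPM + 1), Benjamini-Hochberg adjustment over all genes tested). The count was 0 of 10 members, against 75 of 15148 genes (0.495%). At an unadjusted p of at most 0.05, 1 member was lower in IL-10 B-KO (H2-Ob), beside 5.71% of all genes, and 0 were higher, beside 6.83% of all genes. The 2 groups of lungs overlapped for all 10 members, whereas they did not overlap for 1.02% of genes. The 7 shared genes all had positive log2 fold changes, with a median of 0.52, and the 3 B-cell-biased genes all had negative ones, with a median of -0.65. The median over all genes tested was 0.10. Without IL-10 B-WT replicate 2 the median of the B-cell-biased genes was -0.19 and that of the shared genes 0.64. Over the 20 alternatives named at the end, the shared median ran from 0.29 to 0.68 and the B-cell-biased median from -0.87 to -0.19. The shared median of 0.29 came without IL-10 B-WT replicate 5, where the median of all genes was -0.02.

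H2-Aa encodes the alpha chain of the classical class II molecule I-A. Replicates 1 to 6 of IL-10 B-WT had 1019.98, 1159.63, 1364.27, 516.02, 366.78 and 673.9 TPM, and those of IL-10 B-KO had 2092.22, 716.89, 727.76, 1094.71, 1331.95 and 1049.24 TPM. IL-10 B-WT replicates 4, 5 and 6 were the lowest of the 12 lungs, IL-10 B-KO replicate 1 was the highest, and the groups overlapped. The log2 fold change was 0.50 ± 0.35 (SE; limma adjusted p = 0.538).

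H2-Ab1, the I-A beta chain, ran from 518.65 to 2048.81 TPM across IL-10 B-WT lungs, with a median of 1334.66, whereas IL-10 B-KO spanned 943.48 to 3024.43 TPM, with a median of 1537.47. Replicates 1 and 5 of IL-10 B-KO exceeded every IL-10 B-WT lung, and the other 4 lay among them. The difference, as a log2 fold change, was 0.51 ± 0.40 (SE; limma adjusted p = 0.574).

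H2-Eb1, the beta chain of the second class II molecule I-E, ran from 406.57 to 1335.13 TPM across IL-10 B-WT lungs, with a median of 781.94, whereas IL-10 B-KO spanned 548.45 to 2183 TPM, with a median of 919.90. Only IL-10 B-KO replicate 1 lay above every IL-10 B-WT lung. The log2 fold change was 0.35 ± 0.36 (SE; limma adjusted p = 0.674), the smallest of the shared genes. C57BL/6 mice are known to lack the I-E alpha chain, and H2-Ea was listed at 0 in 9 of 12 lungs and reached at most 0.24 TPM.

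Cd74, the invariant chain, ran from 1519.93 to 4495.42 TPM across IL-10 B-WT lungs, with a median of 2976.27, whereas IL-10 B-KO spanned 2350.2 to 6493.14 TPM, with a median of 3931.13. The IL-10 B-WT lungs fell into a higher trio (replicates 1, 2 and 3) and a lower trio (replicates 4, 5 and 6), and all 6 IL-10 B-KO lungs lay above the lower trio. Its log2 fold change was 0.52 ± 0.36 (SE; limma adjusted p = 0.538). The same replicates 4, 5 and 6 were the 3 lowest IL-10 B-WT lungs for all 7 shared genes.

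H2-DMa, the alpha chain of the peptide exchanger H2-DM, ran from 44.19 to 215.75 TPM across IL-10 B-WT lungs, with a median of 100.79, whereas IL-10 B-KO spanned 86.79 to 208.73 TPM, with a median of 135.82. The highest lung of the 12 was IL-10 B-WT replicate 1, and the 3 lowest were IL-10 B-WT replicates 4, 5 and 6. On the log2 scale the fold change was 0.54 ± 0.39 (SE; limma adjusted p = 0.546).

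H2-DMb1 had the largest log2 fold change of the shared genes. This DM beta chain transcript was at 181.4, 82.03, 141.24, 68.76, 50.66 and 62.89 TPM across replicates 1 to 6 of IL-10 B-WT, while those of IL-10 B-KO had 235.62, 99.99, 93.19, 148.83, 210.6 and 108.81 TPM in that order. All 6 IL-10 B-KO lungs were above the IL-10 B-WT median of 75.40 TPM, and 2 were above every IL-10 B-WT lung. The log2 fold change was 0.66 ± 0.34 (SE; limma p = 0.0688, adjusted p = 0.436), and an exact two-sided permutation test over 924 arrangements gave p = 0.104. When any 1 lung was removed, the log2 fold change of H2-DMb1 lay between 0.51 and 0.87. The smallest value came without IL-10 B-WT replicate 5 (limma adjusted p = 0.562). The largest came without IL-10 B-WT replicate 1 (limma adjusted p = 0.104), where 604 of all 15148 genes passed the test, against 75 with all lungs.

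H2-DMb2, the near copy of H2-DMb1, had the opposite sign. Replicates 1 to 6 of IL-10 B-WT had 29.48, 143.12, 28.01, 15.78, 12.95 and 21.39 TPM, and those of IL-10 B-KO had 26.2, 20.33, 9.02, 15.17, 18.2 and 23.83 TPM. IL-10 B-WT replicate 2 was 4.85 times the next IL-10 B-WT lung, and apart from it the 2 groups covered nearly the same range. Between genotypes the log2 fold change was -0.65 ± 0.47 (SE; limma adjusted p = 0.551) and -0.19 without that lung. The IL-10 B-WT mean of 41.8 ± 50.1 TPM (SD, n = 6) was 21.5 ± 7.28 TPM (SD, n = 5) without it, and the mean of IL-10 B-KO was 18.8 ± 6.19 TPM (SD, n = 6).

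H2-Oa, the alpha chain of H2-DO, behaved in the same way. Replicates 1 to 6 of IL-10 B-WT had 16.26, 57.91, 20.61, 7.77, 5.57 and 10.53 TPM, and those of IL-10 B-KO had 22.22, 11.17, 5.12, 7.92, 8.34 and 11.01 TPM. The highest lung was again IL-10 B-WT replicate 2, at 2.81 times the next, and the lowest was IL-10 B-KO replicate 3. Its log2 fold change was -0.51 ± 0.47 (SE; limma adjusted p = 0.636) and -0.13 without IL-10 B-WT replicate 2, so this gene showed no difference beyond the spread between lungs with or without it.

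H2-Ob, the beta chain of H2-DO, had the largest difference of the 10 genes. Replicates 1 to 6 of IL-10 B-WT had 11.39, 87.98, 18.5, 12.53, 5.88 and 16.87 TPM, and those of IL-10 B-KO had 9.54, 14.65, 2.12, 7.17, 3.23 and 10.47 TPM. All 6 IL-10 B-KO lungs lay below the IL-10 B-WT median of 14.7 TPM, and replicates 3 and 5 were also under the lowest IL-10 B-WT value. The log2 fold change was -1.24 ± 0.55 (SE), with a 95% interval from -2.43 to -0.05 (limma p = 0.0416, adjusted p = 0.381), and the exact two-sided permutation test gave p = 0.0671. Without IL-10 B-WT replicate 2, at 4.76 times the next lung, its fold change was -0.78 on the log2 scale (limma adjusted p = 0.484).

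Ciita, the transactivator of the class II promoters, varied the most between lungs among the shared genes, from 3.31 to 52.82 TPM. Replicates 1 to 6 of IL-10 B-WT had 52.82, 40.01, 21.24, 5.18, 3.31 and 6.24 TPM, and those of IL-10 B-KO had 22.42, 11.96, 11.74, 27.8, 45.58 and 21.79 TPM. The IL-10 B-WT lungs held both the highest and the lowest values, in the same trios as Cd74, and all IL-10 B-KO lungs lay above the lower trio and below the highest lung. Its log2 fold change was 0.61 ± 0.61 (SE; limma adjusted p = 0.665).

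**Figure D2:**
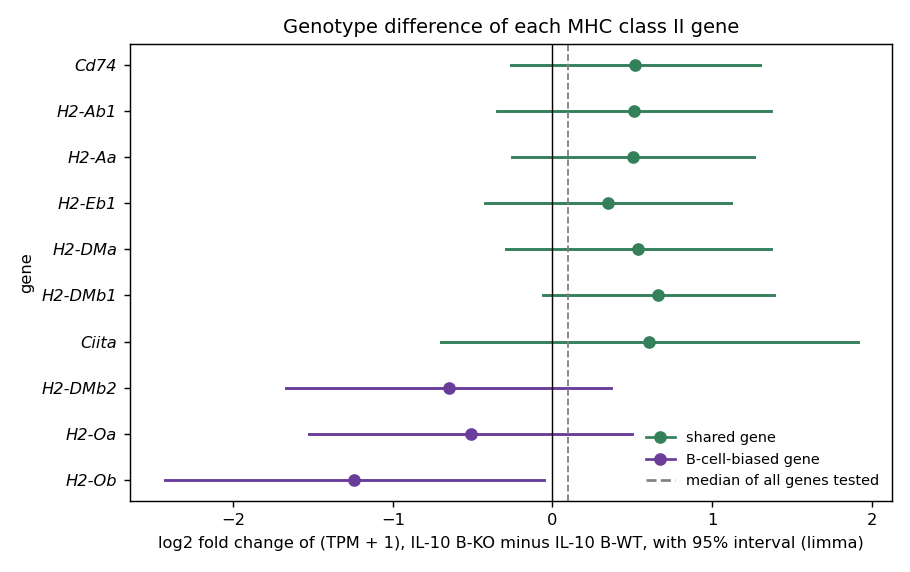
Log2 fold change of (TPM + 1), IL-10 B-KO minus IL-10 B-WT, of each class II gene with its 95% interval from limma. The 7 shared genes (green) lie above 0 and the 3 B-cell-biased genes (purple) below it, every interval except that of H2-Ob includes 0, and the dashed line is the median of all genes tested, 0.10.

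The difference between the 2 sets was tested within each lung by 3 ratios of a B-cell-biased to a related shared gene. A ratio within a lung largely cancels a factor that scales both of its genes alike. The ratio also falls when the shared gene alone rises, so it is not free of the level of shared class II transcripts. It shows unequal change and not which gene of the pair changed. All 3 ratios were lower in IL-10 B-KO, with an adjusted p of 0.0303 for each (exact two-sided permutation tests, Benjamini-Hochberg over the 3 ratios). The 3 ratios were chosen with earlier results of these same lungs known, so their p-values describe the difference and are not an independent test. In whole lung tissue, fewer cells of a type and less RNA per cell cannot be told apart.

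The ratio of the DM beta chains, H2-DMb2 to H2-DMb1, compares partners of the same alpha chain. In TPM, H2-DMb2 stood at 16.3% to 174.5% of H2-DMb1 in the IL-10 B-WT group (median 24.3%), against 8.64% to 21.9% for IL-10 B-KO (median 10.7%). In 4 IL-10 B-KO lungs the ratio was under the IL-10 B-WT range, and the other 2 overlapped with it. The mean log2 ratio of (TPM + 1) differed by -1.31 (exact permutation p = 0.0173) and by -0.84 without IL-10 B-WT replicate 2 (exact permutation p = 0.0303). The division of shared reads between the copies, described above for the coding windows, enters this ratio directly, and its part in the result was not tested.

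The ratio of the alpha chains of DO and DM, H2-Oa to H2-DMa, ran from 7.54% to 42.7% for IL-10 B-WT (median 13.5%), against 4.02% to 12.9% for IL-10 B-KO (median 7.47%). Here 3 IL-10 B-KO lungs were under the IL-10 B-WT range. The mean log2 ratio differed by -1.05 (exact permutation p = 0.0303). Without IL-10 B-WT replicate 2 the difference was -0.77 (exact permutation p = 0.0606), so this ratio is the least firm of the 3. Exact permutation within replicate numbers gave p = 0.0625, where the smallest possible p is 0.0313. That value carries little weight, because the numbers did not pair the lungs.

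The ratio of the DO beta chain to the classical beta chain, H2-Ob to H2-Ab1, ran from 0.556% to 4.82% for IL-10 B-WT (median 1.53%), against 0.149% to 1.55% for IL-10 B-KO (median 0.384%). Again 4 IL-10 B-KO lungs were under the IL-10 B-WT range. The mean log2 ratio differed by -1.75 (exact permutation p = 0.0216) and by -1.43 without IL-10 B-WT replicate 2 (exact permutation p = 0.0433). Unlike the DM beta chains, H2-Ob and H2-Ab1 are not near copies (64.2% of aligned coding bases identical).

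**Figure D3:**
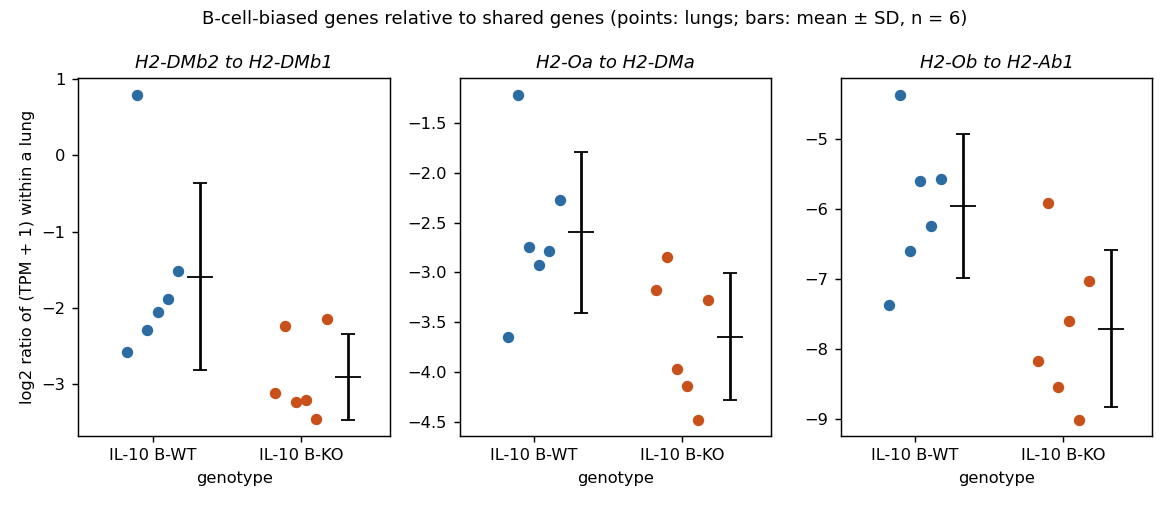
Log2 ratio of (TPM + 1) within each lung for H2-DMb2 to H2-DMb1, H2-Oa to H2-DMa and H2-Ob to H2-Ab1, with points for lungs and bars for the mean ± SD (n = 6). The IL-10 B-KO means differ by -1.31, -1.05 and -1.75 on the log2 scale, the groups overlap in each panel, and IL-10 B-WT replicate 2 is the highest point of each panel.

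Ratios among the shared genes were given as a description. H2-Ab1 stood at 1.25 to 2.01 times H2-Aa for IL-10 B-WT, beside 1.32 to 1.63 times for IL-10 B-KO. H2-Eb1 stood at 0.847 to 1.11 and 0.754 to 1.04 times H2-Aa in the same order, and Cd74 at 2.53 to 4.72 and 3.10 to 3.85 times. The medians of H2-DMb1 to H2-DMa were 1.01 for IL-10 B-WT, beside 0.999 for IL-10 B-KO. Over the 12 lungs, the deviations of each shared gene from its genotype mean had an r of 0.89 (H2-Eb1) to 0.99 (H2-Ab1) with those of the mean of the 7 genes, to which each contributes, so they went up and down together from lung to lung.

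Marker lists of other cell types were read beside these genes, and 1 marker gene passed the test over all of the lists. Of all genes tested, 5.71% were lower in IL-10 B-KO at an unadjusted limma p of at most 0.05, and 5568 of 15148 had lower values. Of the 16 B cell markers, 15 were lower in IL-10 B-KO, with a median log2 fold change of -1.76, and 13 of them had an unadjusted limma p of at most 0.05. Cd79a, at -4.16, was the one that passed the test (limma adjusted p = 0.0222), and it is the locus that carries Cre. The median was -1.26 without IL-10 B-WT replicate 2, with 15 of 16 lower, 11 at that p and Cd79a again the only marker to pass. The summed B cell marker TPM was 190.67 to 2360.81 for IL-10 B-WT, beside 124.01 to 269.9 for IL-10 B-KO, where replicates 2 and 6 were the highest at 269.9 and 266.48. For H2-Ob these lungs were also the highest in IL-10 B-KO, at 14.65 and 10.47 TPM.

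Myeloid markers had positive medians. All 12 monocyte and interstitial macrophage markers had positive log2 fold changes (median 1.49, 10 with an unadjusted limma p of at most 0.05, 0 passing the test), and their summed TPM was 203.24 to 2702.7 for IL-10 B-WT, beside 486 to 3582.99 for IL-10 B-KO. All 8 neutrophil markers had positive values too (median 1.72, 7 at that p, 0 passing), as were all 10 alveolar type 2 markers (median 0.85, 6 at that p, 0 passing). Dendritic cell markers had a median of 0.09 with 7 of 11 higher, alveolar macrophage markers 0.33 with 8 of 10 higher, and T cell markers -0.10 with 4 of 9 higher. When IL-10 B-WT replicate 2 was left out, these medians were 1.48, 1.59, 0.93, 0.32, 0.41 and 0.18 in the same order, that of the T cell markers changing sign. For comparison, 6.83% of all genes tested were higher in IL-10 B-KO at that unadjusted limma p, and 9580 of 15148 had positive log2 fold changes. The part of any of these cell types in the class II values was not tested.

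Levels of the class II genes were also set against the B cell markers within each genotype, as 20 relations. Against the mean log2(TPM + 1) of the 16 markers in IL-10 B-WT, Pearson's r over 6 lungs was 0.98 for H2-DMb2 (exact permutation p = 0.00278, adjusted p = 0.0278), 0.93 for H2-Oa (p = 0.00139, adjusted p = 0.0278) and 0.96 for H2-Ob (p = 0.00833, adjusted p = 0.0556). For the 7 shared genes r was 0.12 to 0.61 (adjusted exact permutation p from 0.435 to 0.871). These values of r rest heavily on IL-10 B-WT replicate 2, and by other measures the sets were not separated.

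By rank, Spearman's rho in IL-10 B-WT was 0.94, 1.00 and 0.83 for H2-DMb2, H2-Oa and H2-Ob (exact permutation p of 0.0167, 0.00278 and 0.0583, adjusted p of 0.0667, 0.0556 and 0.167). It was 0.94 for both H2-Aa and H2-Eb1 (exact permutation p = 0.0167, adjusted p = 0.0667) and 0.66 to 0.83 for the other 5 shared genes, so no rank relation passed the adjustment. Without replicate 2 alone, an alternative chosen after seeing the data, r over 5 lungs was 0.83 to 0.98 for the B-cell-biased genes and 0.75 to 0.99 for the shared genes. Without replicates 2 and 5, the lungs farthest from the median, r over 4 lungs was 0.84, 0.96 and 0.57 for H2-DMb2, H2-Oa and H2-Ob. In those lungs it was 0.97 for H2-Aa, 0.999 for H2-Eb1, 0.84 for H2-Ab1, 0.85 for Cd74 and 0.62 to 0.69 for H2-DMa, H2-DMb1 and Ciita.

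In IL-10 B-KO lungs none of the 10 relations passed the adjustment. The largest r was that of H2-Ob, 0.78 (exact permutation p = 0.0694, adjusted p = 0.347), with a rho of 0.94 (exact permutation p = 0.0167, adjusted p = 0.0667) and an r of 0.83 without replicates 2 and 6, the lungs farthest from the median. H2-DMb2 and H2-Oa had r of 0.47 and 0.27, which were 0.52 and 0.77 without those lungs. The shared genes had r of -0.62 to -0.33 (adjusted exact permutation p from 0.448 to 0.568), with rho of -0.43 to -0.20 (adjusted exact permutation p from 0.466 to 0.714). Their sign rested on replicates 2 and 6, since without them r was 0.22 to 0.64 for 6 of the 7 and -0.30 for Ciita. The difference between genotypes in these relations was not tested.

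**Figure D4:**
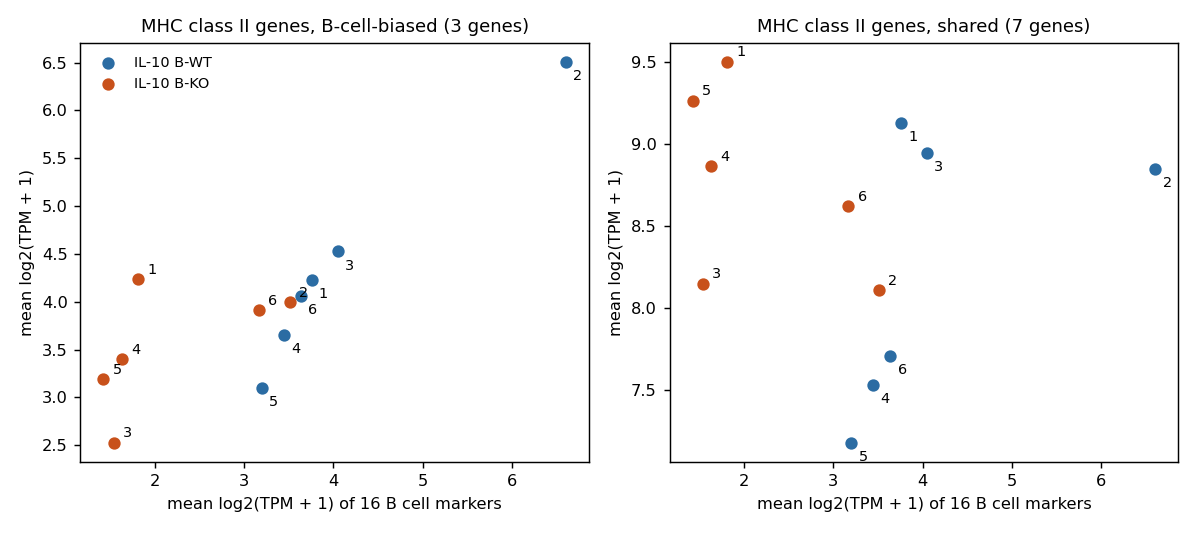
Mean log2(TPM + 1) of the 3 B-cell-biased genes (left) and of the 7 shared genes (right) against the mean log2(TPM + 1) of 16 B cell markers, with 1 point per lung numbered by replicate, IL-10 B-WT in blue and IL-10 B-KO in orange. On the left IL-10 B-WT replicate 2 stands at the upper right (6.61 on the x axis, 6.51 on the y axis), and on the right the highest point is IL-10 B-KO replicate 1 (9.50), which has a low B cell marker level (1.81).

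The genes whose pattern was most like the members were found by Pearson's r between deviations from the genotype means over 12 lungs, given as a description without a test. For the mean of the 3 B-cell-biased genes they were Ighm, the heavy chain of IgM (r = 0.95), P2ry10 (0.95), Ptprcap (0.95), Lax1 (0.95) and Gm30054 (0.95). For the mean of the 7 shared genes they were Rinl (0.96), Il2rb, a receptor subunit for interleukin 2 (0.95), Sh2d2a (0.94), Mndal (0.94) and Epsti1 (0.94). With IL-10 B-WT replicate 2 left out, r over 11 lungs was 0.91, 0.86, 0.92, 0.89 and 0.87 for the first 5 genes and 0.94 to 0.96 for the other 5. Ighm was one of the 16 B cell markers, and all of these points share the same 12 libraries and their scaling.

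The other genes of the class II pathway, 34 tested of 36 in the table, had a median log2 fold change of 0.32, with 28 positive and 6 negative values, and 0 passed the test. H2-Ea and the cytokine gene Il4 fell under the filter on low values. At an unadjusted limma p of at most 0.05, 6 were higher and 1 was lower. Of all genes tested, 6.83% were higher and 5.71% lower at that p, and 9580 of 15148 had positive log2 fold changes. The 6 higher pathway genes were the lysosomal proteases Ctss, Ctsb, Ctsd and Ctsz, the endopeptidase Lgmn and the myeloid transcription factor Spi1.

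Lysosomal processing genes, which cut antigens and the invariant chain, were higher in IL-10 B-KO in 7 of 7 cases, with a median log2 fold change of 1.09. Ctss, the protease that trims the invariant chain in B cells and dendritic cells, ran from 30.07 to 1254.08 TPM across IL-10 B-WT lungs, with a median of 236.99, whereas IL-10 B-KO spanned 145.9 to 1371.66 TPM, with a median of 987.41. The groups overlapped, since replicate 1 of IL-10 B-WT was high while replicate 2 of IL-10 B-KO was low, and the log2 fold change of 1.89 ± 0.78 (SE) did not pass the test (limma adjusted p = 0.358). Those lungs were also the highest of IL-10 B-WT, respectively the lowest of IL-10 B-KO, in summed monocyte and interstitial macrophage markers, at 2702.7 and 486 TPM.

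The promoter factors that join Ciita at the X and Y boxes lay near 0. The 7 genes (Rfx5, Rfxap, Rfxank, Nfya, Nfyb, Nfyc and Creb1) had log2 fold changes from -0.11 to 0.10 with a median of 0.01. Of 11 inducers of Ciita, from the interferon gamma receptor and its kinases to lineage factors, 10 were higher (median 0.42). The exception was Pax5, the B cell identity factor, which is also one of the B cell markers. Pax5 ran from 4.64 to 42.22 TPM for IL-10 B-WT, against 0 to 7.94 TPM for IL-10 B-KO, with a log2 fold change of -2.87 ± 0.64 (SE; limma adjusted p = 0.0731). Without IL-10 B-WT replicate 1, Pax5 (-3.11) and the proteases Ctsb (1.42), Ctsd (1.27) and Ctsz (1.48) passed the test. In that setting 604 of all 15148 genes passed, against 75 with all lungs, so the number passing rose among all genes too. Whether it rose more in this pathway was not tested. Membrane turnover genes (4 of 4 higher, median 0.44) and costimulatory genes (3 of 4 higher, median 0.48) had no member past an unadjusted p of 0.05, and H2-Eb2, the remaining class II locus, stood at -0.50 (limma adjusted p = 0.670).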

How the data were processed

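Total RNA from 12 lungs was sequenced, and the authors deposited 1 table of TPM, a length-scaled abundance, per gene and library. The submitters' processing notes name fastp, HISAT, RSEM and the build GRCm38.p5, and versions, read length and strand setting are not given in the sources used here. RSEM divides reads shared by similar genes by estimation. TPM are scaled to a common total, so a gene's value also moves with all others.

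Members and gene lists were chosen with earlier results of these data known, as were the 3 ratios. Genes with at least 1 TPM in at least 6 libraries (15148) were tested with limma 3.58.1 (lmFit, eBayes with trend) in R 4.3.3 on log2(TPM + 1), which understates changes of low genes, and 31629 genes had a value above 0 in some library. A gene was called at an adjusted p of at most 0.05 with 1 or more log2 units of change in either direction. The fit was tested on simulated data with normal noise and known log2 changes of 2 or 3, of which it called 93 and 97 of 100 genes. Of 14948 unchanged genes it called 3. Smaller changes, such as those of the members, were not simulated, so the power to call them is not known. Single genes and ratios were tested by exact two-sided permutation over 924 arrangements (SciPy 1.17.1), whose smallest p is 0.00216. Replicate numbers of the labels did not pair the lungs, since same-numbered lungs deviated with correlations from -0.29 to 0.05. Lungs were perfused and lavaged before they were excised, per the study's methods, and a batch or litter per mouse is not given in the sources used here.

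Named genes were all members, the pathway list, examples from the marker lists, Il10 and Cd79a, and the 5 genes most like each set. Gene IDs matched GENCODE M21 for 10 of 10 members, and promoters came from RefSeq. Alternatives were a pseudocount of 0.1, other filters, array weights, quantile normalization, centring on medians, TPM rescaled after removing immunoglobulin genes, a replicate block and each library left out.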

Additional observations from a re-analysis of the deposited data

Results flagged for a closer look

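In 26 groups of 6 lungs tested on the log2(TPM + 1) scale for a lung far from the others by Dixon's ratio, 2 values, both from 1 lung, exceeded the 95% critical value, where chance gives about 1 in 20 groups. IL-10 B-WT replicate 2 had an H2-DMb2 level of 143.12 TPM, with a gap to the next lung of 0.665 of the group's range on that scale. The same lung had a log2 ratio of H2-DMb2 to H2-DMb1 of 0.80, with a gap of 0.684 of the range. On the TPM scale, tried after seeing the data, the gaps of this lung were 0.873 for H2-DMb2, 0.713 for H2-Oa and 0.846 for H2-Ob, all above the critical value, so the number of outlying values depends on the scale. It was also the IL-10 B-WT lung with the highest summed B cell markers, 2360.81 TPM, and the part of those transcripts in these values was not tested.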

How the results depend on the processing

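No member passed the test under any of the 20 alternatives, and none of the 200 single-gene values changed sign or side of the threshold. H2-Ob ran from -1.52 to -0.78 on the log2 scale, with a limma adjusted p from 0.0859 (array quality weights) to 0.677. The count of members at an unadjusted p of at most 0.05, which was 1, was 0 with no filter on low values and ran from 0 to 3 when each lung was left out, with 3 without IL-10 B-WT replicate 1 (H2-DMa, H2-DMb1 and H2-Ob) and 0 without IL-10 B-WT replicate 2 or 6 or IL-10 B-KO replicate 4 or 5. With a replicate block 1 other pathway gene was called (Pax5), and with array quality weights 2 (Pax5 and Ctsb), against 0, and with a lung left out 0 to 4, the 4 (Pax5, Ctsb, Ctsd and Ctsz) without IL-10 B-WT replicate 1 and 1 (Pax5) when replicate 2 of IL-10 B-KO was left out. The number of all genes called moved from 75 to 604 without IL-10 B-WT replicate 1, and to 19 without IL-10 B-KO replicate 1 or 5. The H2-Oa to H2-DMa difference was -1.05 with p = 0.0625 under exact permutation within the replicate block, and -1.26 to -0.77 with a lung left out, with exact permutation p from 0.0541 to 0.0671 without IL-10 B-WT replicate 2 or 6 or IL-10 B-KO replicate 3, 4 or 5. The other ratios kept their direction and an exact permutation p of at most 0.0433 under all 15 alternatives each, the replicate block (p = 0.0313, the smallest of 64 arrangements) included. Quantile normalization and median centring brought the median of all genes from 0.10 to 0.01 and -0.01. The causes of these changes were not tested. Read counts were not used here, so the precision of low genes such as H2-Ob cannot be given.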
